A study of Mus musculus with 4 samples.

Results

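Mitophagy receptors and autophagy adaptors were followed as 10 genes in mouse liver, chosen by name: Pink1, Bnip3, Bnip3l, Fundc1, Sqstm1, Optn, Map1lc3b, Gabarapl1, Ulk1 and Phb2. They are 10 of the 30439 genes or transcripts on the array, and 17 gene probes carried their names in the scanner files. Liver RNA of 4 mice was hybridized, 1 array for each of 4 groups: control fasted, Drp1LiKO fasted, control refed and Drp1LiKO refed. Every mouse was a male C57BL/6J given a high-fat diet for 24 weeks, started at an age of 4 weeks by the study's methods. Drp1LiKO mice lack Drp1 (gene symbol Dnm1l) in the liver and carry Alb-Cre with Drp1 flox/flox, so that the albumin promoter drives Cre in hepatocytes. Which other liver cells keep the gene was not tested. Controls were Drp1 flox/flox littermates, named wild type in the labels. By the labels the refed mice were fasted for 17 h and then fed for 4 h. The study's methods give a shorter fast before the same time of feeding. The labels of the other pair name no feeding state, and these mice are called fasted here because the study's methods describe an overnight fast. With 1 array in each group no difference had a replicate check, and in whole liver fewer cells of a type and less RNA per cell cannot be told apart.

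Mitophagy is the removal of mitochondria by autophagy. Receptors in the outer membrane (Bnip3, Bnip3l, Fundc1) or the inner membrane (Phb2) bind ATG8 proteins of the forming autophagosome such as LC3B (Map1lc3b) and GABARAPL1. On damaged mitochondria the kinase PINK1 marks ubiquitin, and the ubiquitin-binding adaptors p62 (Sqstm1) and optineurin (Optn) link that cargo to ATG8. The kinase ULK1 starts autophagosome formation when nutrients are short, and in liver autophagy is strong in fasting and weak after feeding. Drp1 divides mitochondria, which makes pieces small enough to be engulfed.

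Sqstm1 and Ulk1 differed by 2-fold or more, in different ways. Sqstm1 was higher in the Drp1LiKO liver by 2.67-fold in the fasted pair and by 2.75-fold in the refed pair, and was nearly level between fasted and refed livers of either genotype. Ulk1 was level in 3 livers and 2.40-fold lower in the refed Drp1LiKO liver than in the refed control. The ATG8 genes Gabarapl1 and Map1lc3b were also lowest in that liver, by less than 2-fold. The receptors Bnip3, Bnip3l and Phb2 differed by less than 1.5-fold at the probes used, and the receptor Fundc1 was higher in both Drp1LiKO livers by less than 2-fold.

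A level below is the background-subtracted signal on the log2 scale minus the 75th percentile of its array, so that 0 is the signal of that percentile and 1 unit is 2-fold. Levels of different genes are not compared, since probes differ in brightness. A difference was called at 2-fold or more with the brighter side well above background. Its standard error (SE) comes from the scanner software's error model, lay between 0.204 and 0.209 for the 10 genes, and covers measurement on the array but not the spread between mice. All 4 arrays were on 1 slide and in 1 scan. Gene spots well above background made up 51.4% in the fasted control and 58.2% in the fasted Drp1LiKO liver. They made up 48.7% in the refed control and 55.4% in the refed Drp1LiKO liver. The 75th percentile signal before scaling was 461, 722, 357 and 526 in the same order. Both Drp1LiKO arrays were thus brighter than both control arrays, and small genotype differences depend on the scaling. The part of this brightness in them was not tested. All 10 genes were well above background on all 4 arrays, by 16 of their 17 probes.

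Each library was checked against its labels. The 8 hepatocyte markers listed were well above background on every array, with a summed level, in multiples of the 75th percentile signal, of 2454 in the fasted control, 1706 in the fasted Drp1LiKO, 2993 in the refed control and 2075 in the refed Drp1LiKO liver. Bright probes weigh most in this sum. Of the 8, 6 were lower in the Drp1LiKO liver in each feeding state, and 0 were called lower. Tat was higher by 1.04 fasted and 0.98 refed, and Cps1 by 0.60 fasted and 1.24 refed. The Dnm1l probe, at chr16:16312331-16312390 (mm9), read 1.02 in the fasted control, 0.81 in the fasted Drp1LiKO, 0.66 in the refed control and 0.54 in the refed Drp1LiKO liver. It was lower by only 0.21 and 0.12 in the Drp1LiKO livers, and whether it lies in the deleted part is not given in the sources used here, so it does not check the genotypes. The fasted control library stood apart: the 4 skeletal muscle markers listed (Myh4, Acta1, Ckm, Myl1) were well above background in it and on no other array. Their summed level was 2.49 there against 0.0544 in the fasted Drp1LiKO, 0.108 in the refed control and 0.0399 in the refed Drp1LiKO liver. That library enters the genotype difference in fasted livers, the refeeding difference in controls, the difference of these differences and the limma model. The part of muscle RNA in them was not tested. The genotype difference in refed livers and the refeeding difference in Drp1LiKO livers do not use it. The difference of differences cannot be formed without it, and the additive model would then have no residual degrees of freedom.

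Sqstm1 encodes p62, an adaptor that binds both ubiquitin and ATG8 and is itself degraded by autophagy. Its main probe lies at chr11:50015985-50016044 on the minus strand (mm9) and starts at base 1060 of the transcript. The level was 2.92 in the fasted control, 4.34 in the fasted Drp1LiKO, 2.86 in the refed control and 4.32 in the refed Drp1LiKO liver. Both Drp1LiKO livers were above both controls by more than 1 unit. The genotype difference was 1.42 (SE 0.20) in fasted livers, a value higher than that of 94.9% of the genes compared. It was 1.46 (SE 0.20) in refed livers, higher than that of 95.2%, in a pair that does not use the fasted control library. Refeeding differences were -0.06 in controls and -0.02 in Drp1LiKO livers. The second Sqstm1 probe lies further downstream, at chr11:50012868-50012927, and was dim: -2.88, -2.43, -3.15 and -2.69 in the same order, not well above background in the refed control. It read higher in Drp1LiKO livers by 0.45 (SE 0.29) fasted and by 0.45 (SE 0.37) refed, the latter against a control signal not well above background. With normexp background correction these became 0.11 and -0.01, so the direction of the dim probe did not hold in refed livers. The 2-fold call rested on the brighter probe, which gave 1.47 and 1.54 with normexp.

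Some markers of other liver cells differed between genotypes as well. Of 13 markers of Kupffer cells and macrophages, 11 to 13 were above background on each array, 5 were called higher in Drp1LiKO livers in each feeding state and 0 lower. The median difference of the 13 was 0.25 fasted and 0.57 refed, with 4 of them lower fasted and 1 refed. Trem2 was higher by 2.43 fasted and by 1.64 refed, whereas Itgam gave -0.88 and -0.66 and Timd4 gave -0.42 and 0.32. Their summed level, in which bright probes weigh most, was 103 in the fasted control, 118 in the fasted Drp1LiKO, 112 in the refed control and 193 in the refed Drp1LiKO liver. Of 4 cholangiocyte markers above background, Sox9 and Spp1 were called higher fasted and Sox9 refed, while Krt19 and Krt7 were called in neither pair. Summed levels of these markers were 0.479, 1.06, 0.545 and 0.999 in the same order. p62 is present in these cells as well as in hepatocytes, and their part in the Sqstm1 difference was not tested.

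Optn encodes optineurin, an adaptor of the PINK1 route. Its probe is at chr2:4954187-4954246 (mm9, minus strand). The level was 0.09 in the fasted control, 0.64 in the fasted Drp1LiKO, -0.11 in the refed control and -0.02 in the refed Drp1LiKO liver. The fasted Drp1LiKO liver was thus the high one, and the other 3 lay close together. Between genotypes it differed by 0.55 (SE 0.21) fasted and 0.09 (SE 0.21) refed. The refeeding difference in Drp1LiKO livers was -0.66 (SE 0.21), a 1.59-fold lower level after feeding, against -0.21 (SE 0.21) in controls.

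**Figure D1:**
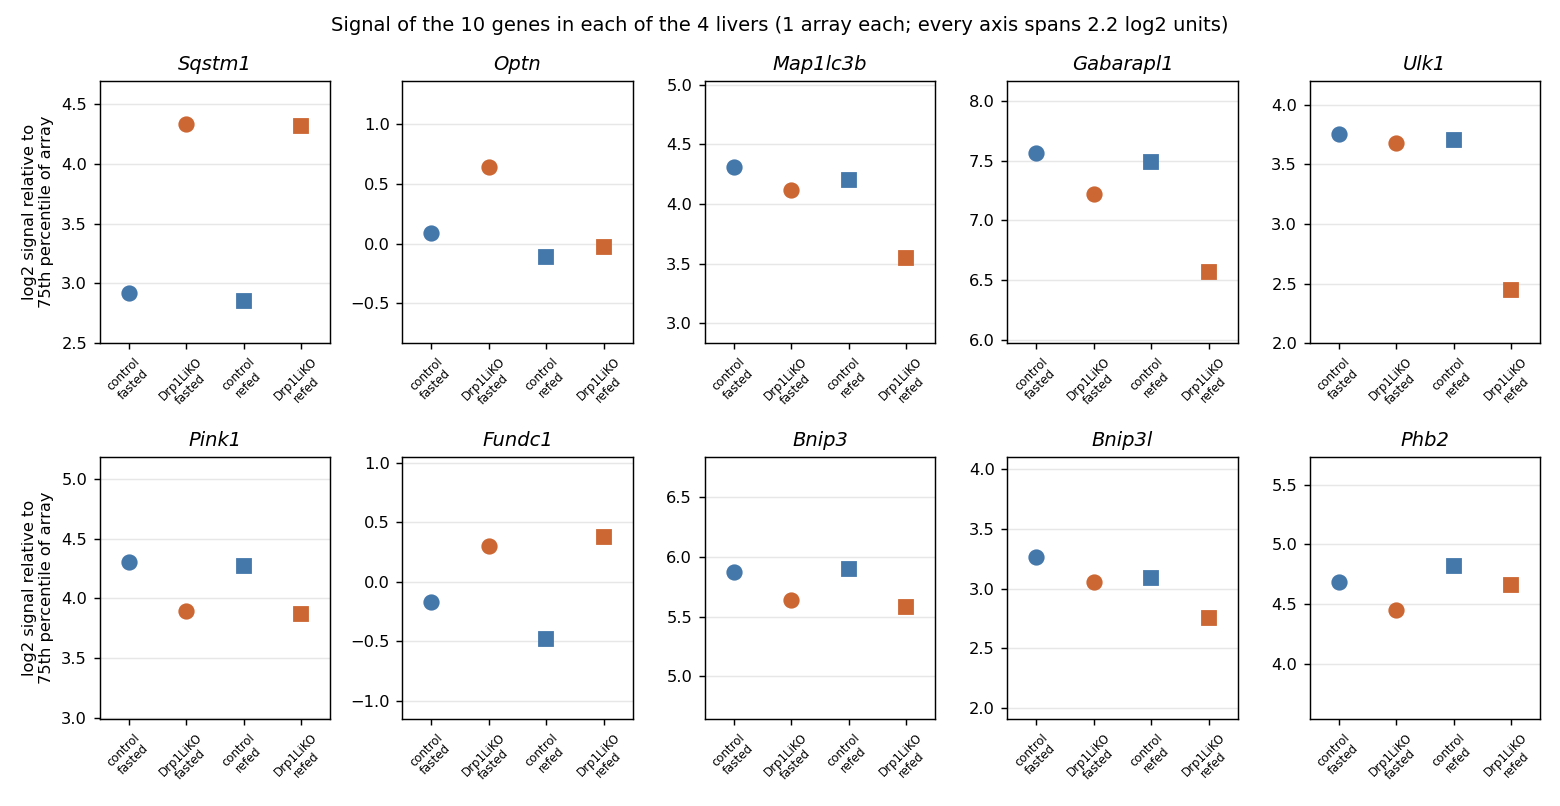
Level of each of the 10 genes in the 4 livers, 1 array each (y axis: log2 signal relative to the 75th percentile of the array; circles fasted, squares refed; blue control, orange Drp1LiKO). Each axis spans the same number of log2 units. Sqstm1 sits at 4.34 and 4.32 in the Drp1LiKO livers against 2.92 and 2.86 in controls, and Ulk1 drops to 2.45 in the refed Drp1LiKO liver alone.

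Ulk1 encodes the kinase that opens autophagosome formation and is restrained by mTORC1 after feeding. Its probe is at chr5:111213514-111213573 (mm9, minus strand). The level was 3.75 in the fasted control, 3.68 in the fasted Drp1LiKO, 3.71 in the refed control and 2.45 in the refed Drp1LiKO liver. The refed Drp1LiKO liver lay more than 1 unit below the other livers, which were nearly level. Between genotypes it differed by -0.07 (SE 0.20) fasted and -1.26 (SE 0.20) refed. The refeeding difference was -0.04 (SE 0.20) in controls and -1.23 (SE 0.20) in Drp1LiKO livers, 2.35-fold lower. Both calls rest on the same refed Drp1LiKO array and are not independent of each other. In that liver 3 of 5 neutrophil markers above background were called higher than in the fasted Drp1LiKO liver. These were S100a8 by 2.36, Mpo by at least 2.45-fold and S100a9, while Ly6g gave 0.22 and Csf3r -0.37. The summed neutrophil level, 92.5, 66.1, 55.0 and 58.0 in the order of the levels above, is carried mainly by the bright Csf3r probe and was lower where the 3 were higher. The part of these cells in the Ulk1 difference was not tested.

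Gabarapl1 encodes an ATG8 protein of the GABARAP branch. Its probe is at chr6:129492254-129492313 (mm9, plus strand). The level was 7.57 in the fasted control, 7.22 in the fasted Drp1LiKO, 7.48 in the refed control and 6.57 in the refed Drp1LiKO liver. The genotype difference was -0.35 (SE 0.20) fasted and -0.92 (SE 0.20) refed, 1.89-fold lower and just short of a call. Refeeding gave -0.08 (SE 0.20) in controls and -0.65 (SE 0.20) in Drp1LiKO livers.

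Map1lc3b encodes LC3B, the ATG8 protein most used as a marker of autophagosomes. Its probe is at chr8:124121771-124121830 (mm9, plus strand) and is printed as 10 spots, whose SD on the log2 scale was 0.0465 to 0.0729. The level was 4.31 in the fasted control, 4.12 in the fasted Drp1LiKO, 4.20 in the refed control and 3.55 in the refed Drp1LiKO liver. As with Gabarapl1, the refed Drp1LiKO liver was the low one. Drp1LiKO minus control gave -0.19 (SE 0.20) fasted and -0.65 (SE 0.20) refed, and refeeding gave -0.11 (SE 0.20) in controls and -0.57 (SE 0.20) in Drp1LiKO livers.

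Pink1 encodes the kinase that accumulates on depolarized mitochondria. Its probe is at chr4:137869327-137869386 (mm9, minus strand). The level was 4.30 in the fasted control, 3.90 in the fasted Drp1LiKO, 4.27 in the refed control and 3.87 in the refed Drp1LiKO liver. Both Drp1LiKO livers lay below both controls, by -0.41 (SE 0.20) fasted and -0.40 (SE 0.20) refed. Refeeding differences were -0.03 in both genotypes.

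Fundc1 encodes an outer membrane receptor that is used in hypoxia. Its probe is at chrX:17133867-17133926 (mm9, minus strand). The level was -0.17 in the fasted control, 0.30 in the fasted Drp1LiKO, -0.48 in the refed control and 0.37 in the refed Drp1LiKO liver. Both Drp1LiKO livers lay above both controls. The genotype difference was 0.47 (SE 0.21) fasted and 0.85 (SE 0.21) refed, 1.38-fold and 1.80-fold. Refeeding gave -0.31 (SE 0.21) in controls and 0.08 (SE 0.21) in Drp1LiKO livers.

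Bnip3 encodes an outer membrane receptor induced by hypoxia and fasting. Its probe nearest the 5′ end, at chr7:146082760-146082819 (mm9, minus strand), read 5.88 in the fasted control, 5.64 in the fasted Drp1LiKO, 5.90 in the refed control and 5.58 in the refed Drp1LiKO liver. Drp1LiKO minus control gave -0.24 (SE 0.20) fasted and -0.32 (SE 0.20) refed. A second probe gave -0.29 and -0.36. The third, at chr7:146082536-146082595 and the closest to the 3′ end, gave -0.91 and -1.09. The 3 probes shared a direction and differed in size, and past 2-fold lay only the third probe in refed livers.

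Bnip3l encodes NIX, the relative of BNIP3 that clears mitochondria from maturing red cells. Its brightest probe, at chr14:67606210-67606269 (mm9, minus strand), read 3.26 in the fasted control, 3.05 in the fasted Drp1LiKO, 3.09 in the refed control and 2.75 in the refed Drp1LiKO liver. Its 4 probes gave genotype differences from -0.45 to -0.21 fasted and from -0.47 to -0.22 refed. Each was lower in the Drp1LiKO liver, by less than 2-fold.

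Phb2 encodes prohibitin 2, an inner membrane protein that is exposed as a receptor when the outer membrane ruptures. The probe used, at chr6:124665659-124666012 (mm9, plus strand), read 4.68 in the fasted control, 4.45 in the fasted Drp1LiKO, 4.82 in the refed control and 4.66 in the refed Drp1LiKO liver. It gave genotype differences of -0.23 (SE 0.20) fasted and -0.16 (SE 0.20) refed. The other Phb2 probe gave 0.03 and -0.01, so the probes did not share a direction in fasted livers.

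**Figure D2:**
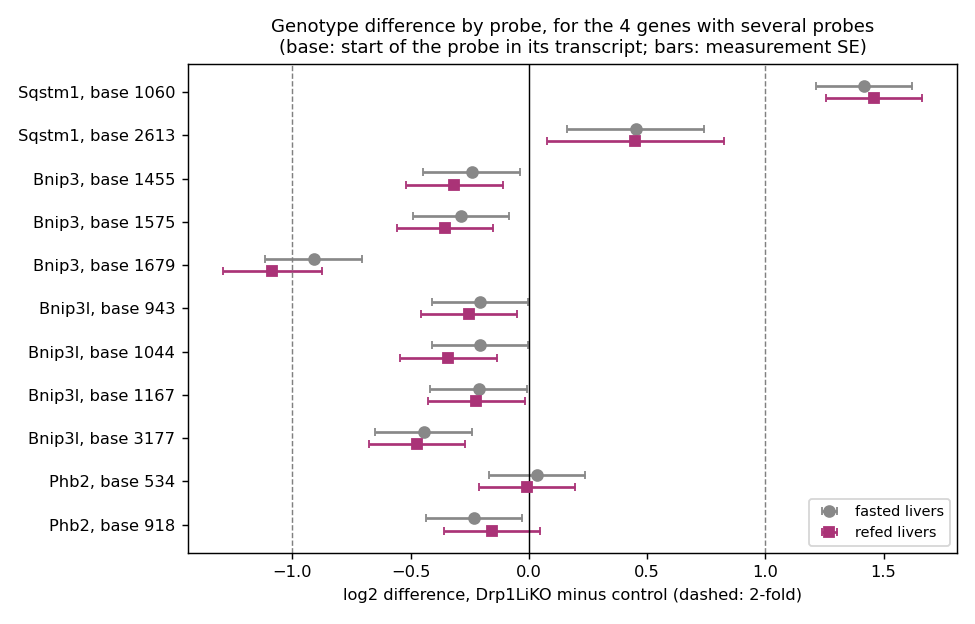
Genotype difference by probe for the 4 genes with several probes (x axis: log2 difference, Drp1LiKO minus control; circles fasted, squares refed; bars: measurement SE; dashed lines: 2-fold; base: start of the probe in its transcript). The Sqstm1 probes lie at 1.42 and 0.45 fasted, while all Bnip3 and Bnip3l probes lie below 0.

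Counted over the 10 genes, the genotype difference in fasted livers was called higher for 1, Sqstm1, and lower for 0. Of the 18040 genes compared, 8.06% were called higher and 5.19% lower. Past 2 SE from 0 in either direction lay 3 of the 10 (Sqstm1, Optn and Fundc1, all higher), against 33.5% of all genes, a share near the background. The median difference of the 10 was -0.20, against -0.08 over all genes compared and -0.12 over the 14447 genes that passed background on each of the 4 arrays. The direction of the smaller differences depended on the scaling: under quantile normalization Bnip3, Gabarapl1, Map1lc3b, Ulk1 and Phb2 turned to between 0.03 and 0.13.

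In refed livers 1 gene was called higher (Sqstm1) and 1 lower (Ulk1), where 8.05% of 17446 genes were called higher and 6.33% lower. Past 2 SE lay 5 of the 10, Sqstm1 and Fundc1 higher and Ulk1, Gabarapl1 and Map1lc3b lower, against 35% of all genes. The median of the 10 was -0.33, against -0.04 over all genes compared. Ulk1, Gabarapl1 and Map1lc3b lay between -0.35 and -0.07 in fasted livers and between -1.26 and -0.65 in refed livers.

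**Figure D3:**
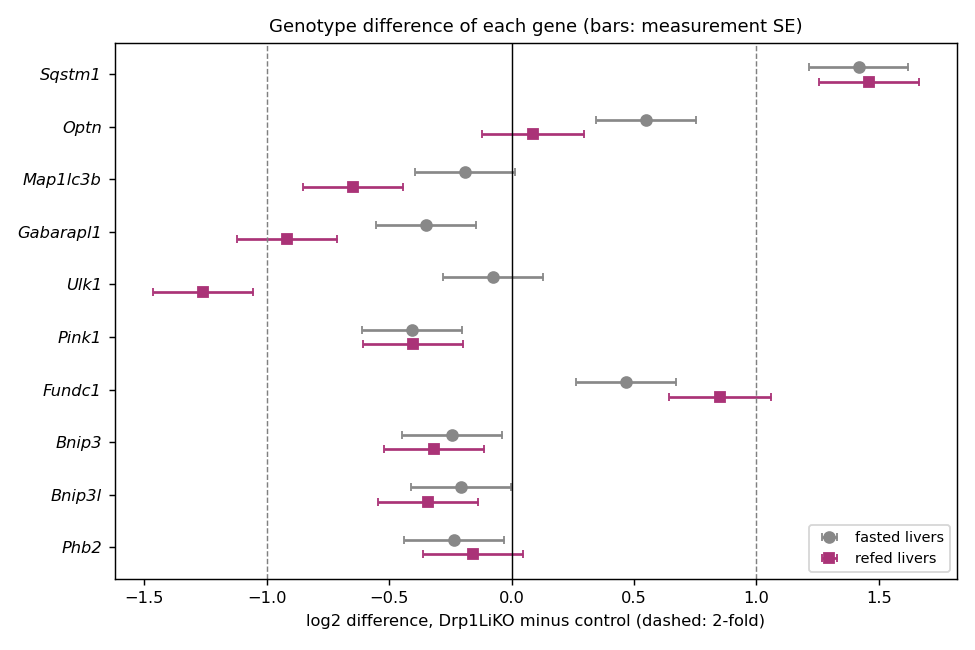
Genotype difference of each gene in fasted livers (grey circles) and refed livers (purple squares), with measurement SE as bars (x axis: log2 difference, Drp1LiKO minus control; dashed lines: 2-fold). Sqstm1 lies past 2-fold in both pairs, and Ulk1 moves from -0.07 fasted to -1.26 refed.

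The refeeding difference asks how each genotype's liver differs between fasted and refed mice. The study's methods place experiments after an overnight fast in the morning and refed sampling in the afternoon. If those hours hold for these arrays, feeding and time of day cannot be told apart, also in the difference of differences below. In controls 0 of the 10 genes were called and 0 lay past 2 SE, where 4.47% of 16437 genes were called higher, 5.83% lower and 28.6% lay past 2 SE. All 10 values lay between -0.31 (Fundc1) and 0.13 (Phb2). In Drp1LiKO livers 0 were called higher and 1, Ulk1, lower, where 5.61% of 18329 genes were called higher and 7.15% lower. Past 2 SE lay 4, all lower after feeding: Ulk1, Optn, Gabarapl1 and Map1lc3b, against 40.4% of all genes. The median of the 10 was -0.07 in controls and -0.18 in Drp1LiKO livers, against 0.09 and 0.08 over all genes compared. Under quantile normalization Gabarapl1 in Drp1LiKO livers passed 2-fold too, and the median of the 10 there was -0.50.

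**Figure D4:**
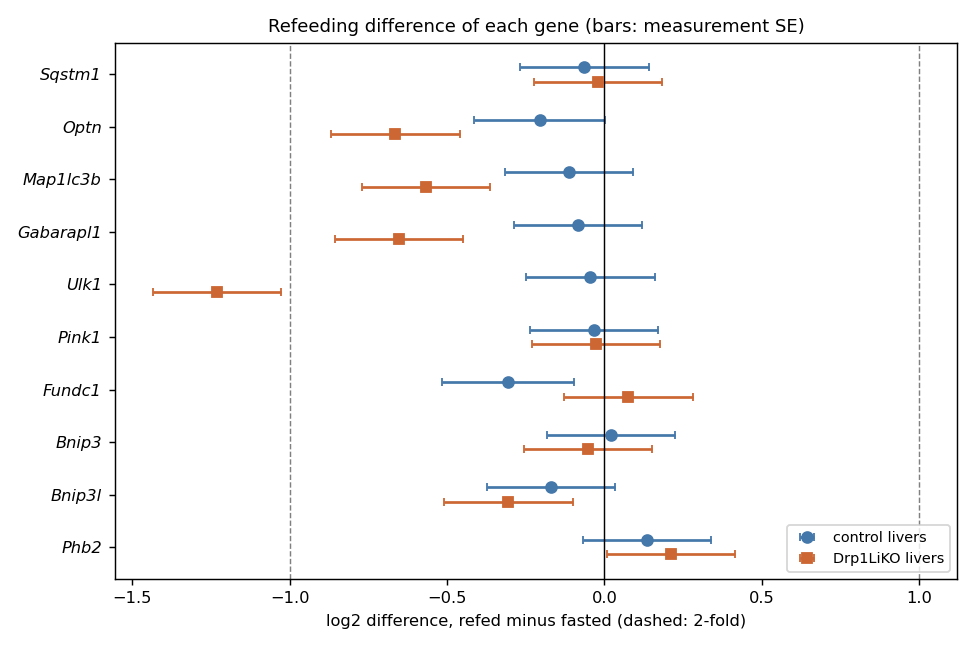
Refeeding difference of each gene in control livers (blue circles) and Drp1LiKO livers (orange squares), with measurement SE as bars (x axis: log2 difference, refed minus fasted; dashed lines: 2-fold). All control values lie between -0.31 and 0.13, while Ulk1, Optn, Gabarapl1 and Map1lc3b lie between -1.23 and -0.57 in Drp1LiKO livers.

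The difference of the differences, genotype difference refed minus genotype difference fasted, uses all 4 arrays and cannot be tested without replicates. It was -1.19 for Ulk1 (SE 0.29 from the measurement alone), and 1.58% of the 14447 genes that passed background on each of the 4 arrays had a lower value. It was -0.57 for Gabarapl1, -0.46 for Optn and -0.46 for Map1lc3b (SE 0.29 each), values under which lay 7.41%, 10.2% and 10.3% of the genes. Fundc1 had 0.38 (SE 0.29). For Sqstm1 it was 0.04, and the other 4 genes lay between -0.13 and 0.08. Over the 9 alternative ways of obtaining the values, Ulk1 stayed between -1.25 and -1.08 and Gabarapl1 between -0.82 and -0.46, while Sqstm1, Pink1, Bnip3 and Phb2 changed sign near 0.

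**Figure D5:**
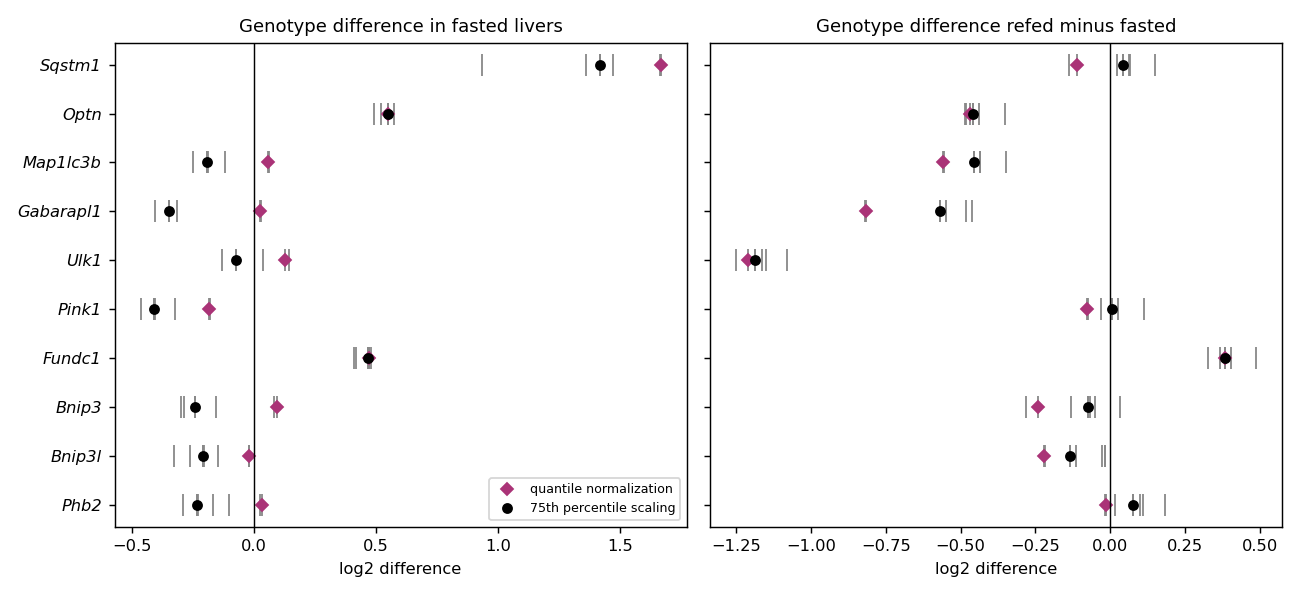
Genotype difference in fasted livers (left) and refed minus fasted (right) for each gene under the main scaling (black circles), quantile normalization (diamonds) and the other alternatives (grey ticks), in log2 units. On the left 5 genes cross 0 under quantile normalization, and on the right Ulk1 lies between -1.25 and -1.08 throughout.

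One test was possible across the 4 arrays, a limma model with genotype and feeding as additive terms and 1 residual degree of freedom, on 16744 genes. It treats the 2 feeding states as replicates of the genotype difference. Its error is the departure from equal genotype differences in the 2 feeding states, with the variance partly shared across genes by limma. Its p-values do not measure the spread between mice of a group. At a Benjamini-Hochberg adjusted p under 0.05 it called 0 genes for genotype (0%) and 0 for feeding (0%). Unadjusted, 4746 genes (28.3%) passed for genotype and 4414 (26.4%) for feeding. The genotype effect of Sqstm1 was 1.44 (SE 0.14), higher in both pairs, with a limma p of 0.000962 unadjusted and 0.0834 adjusted. Over the 11 alternatives that adjusted p ranged from 0.0227 to 0.139 and passed 0.05 under 4 of them. Unadjusted, 4 of the 10 genes passed for genotype (Sqstm1 and Fundc1 higher, Gabarapl1 and Pink1 lower), and none passed after adjustment. For feeding 0 of the 10 passed unadjusted, with a lowest adjusted p by limma of 0.235. The additive terms assume the same genotype difference in both feeding states. For Ulk1, low in 1 of the 4 livers, the genotype effect was -0.67 (SE 0.35) with an adjusted p of 0.292 by limma.

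Promoters are shown for Sqstm1 and Ulk1, the 2 genes called, and for Gabarapl1, Map1lc3b and Optn, which with Ulk1 lay past 2 SE below 0 after feeding in Drp1LiKO livers, where 8 of the 10 genes were lower. Each sequence is the 250 bases before the annotated start in RefSeq, build GRCm38.p6, 5′ to 3′ on the gene's strand. A promoter was matched for 9 of the 10 genes. Capitals mark the one motif match found in these 5 windows.
Sqstm1, chr11:50210821-50211070, minus strand: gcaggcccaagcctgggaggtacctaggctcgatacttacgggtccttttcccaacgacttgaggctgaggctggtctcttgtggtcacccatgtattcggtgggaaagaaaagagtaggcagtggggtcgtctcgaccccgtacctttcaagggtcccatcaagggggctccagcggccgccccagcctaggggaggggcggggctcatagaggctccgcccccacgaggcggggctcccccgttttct
Ulk1, chr5:110810082-110810331, minus strand: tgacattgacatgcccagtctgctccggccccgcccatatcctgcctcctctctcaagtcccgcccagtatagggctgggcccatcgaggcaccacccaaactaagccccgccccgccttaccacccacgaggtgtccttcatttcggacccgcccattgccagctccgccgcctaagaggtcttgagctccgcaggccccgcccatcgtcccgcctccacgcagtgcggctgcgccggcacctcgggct
Gabarapl1, chr6:129532942-129533191, plus strand: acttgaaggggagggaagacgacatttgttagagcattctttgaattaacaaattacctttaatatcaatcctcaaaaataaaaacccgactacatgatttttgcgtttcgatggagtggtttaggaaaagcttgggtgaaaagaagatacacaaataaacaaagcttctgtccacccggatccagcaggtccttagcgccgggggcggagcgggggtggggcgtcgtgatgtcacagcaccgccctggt
Map1lc3b, chr8:121590188-121590437, plus strand: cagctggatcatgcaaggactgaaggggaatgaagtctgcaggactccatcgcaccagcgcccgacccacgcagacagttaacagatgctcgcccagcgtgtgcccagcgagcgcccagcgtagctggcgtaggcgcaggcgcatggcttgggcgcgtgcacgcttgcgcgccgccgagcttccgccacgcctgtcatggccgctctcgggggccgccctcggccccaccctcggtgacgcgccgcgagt
Optn, chr2:5064118-5064367, minus strand: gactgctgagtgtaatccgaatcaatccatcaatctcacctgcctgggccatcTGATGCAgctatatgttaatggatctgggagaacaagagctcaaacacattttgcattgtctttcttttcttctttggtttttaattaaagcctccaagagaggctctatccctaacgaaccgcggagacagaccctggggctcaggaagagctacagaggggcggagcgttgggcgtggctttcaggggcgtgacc

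The windows were searched on both strands, with 50 bases after the start included, for 4 sequences tied to fasting, hypoxia or stress. They were the E-box core CACGTG bound by TFEB and its relatives, the core ACGTG bound by hypoxia-inducible factors, the FoxO site GTAAACA and the ATF4 core TGATGCA. Every CACGTG holds ACGTG on both strands. The TGATGCA match is in the Optn promoter, its first base 197 bases before the start, and 3.15% of the 32851 promoters hold this motif. CACGTG was found in 1 of the 9 promoters, that of Bnip3, against 7.15% of all promoters. ACGTG was found in Bnip3, inside that E-box core, and in Phb2, against 19.6% of all promoters. GTAAACA was in 0 of the 9, against 3.65%. Ulk1, Gabarapl1 and Map1lc3b shared none of the 4, and a missing match says only that these letters are not in the window. The G and C share of the printed windows ran from 46.8% in Gabarapl1 through 50% in Optn, 63.2% in Sqstm1 and 67.2% in Ulk1 to 69.6% in Map1lc3b.

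Other genes of the pathway were read from lists of 94 genes on the array, 91 of them above background. Drp1LiKO livers were called higher for 2 and lower for 1 in fasted livers, and higher for 1 and lower for 4 in refed livers. The refeeding difference was called higher for 0 and lower for 2 in controls, and higher for 0 and lower for 6 in Drp1LiKO livers. The medians were -0.07, -0.15, -0.02 and -0.16 in that order. As shares of the 91 genes, none of these counts was above the shares of all genes called in the same direction. Those shares include genes that are dim on 1 side. Among the 14447 genes above background on all 4 arrays, 2.75% were called higher and 3.31% lower fasted, and 3.12% and 3.99% refed. After feeding these were 1.6% and 2.37% in controls, and 2.85% and 3.02% in Drp1LiKO livers. The listed genes were not counted under that filter, so no comparison with these lower shares is given.

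Among other mitophagy factors, 25 genes, Bcl2l13, an outer membrane receptor, was lower in the Drp1LiKO liver by -1.03 fasted and by -1.29 refed. Its level was 1.53 in the fasted control, 0.50 in the fasted Drp1LiKO, 1.65 in the refed control and 0.36 in the refed Drp1LiKO liver. Nbr1, an adaptor related to p62, was lower after feeding in Drp1LiKO livers by -1.22. Calcoco1, an ATG8-binding adaptor, was not well above background in the refed Drp1LiKO liver. It was at least 2.64-fold lower there than in the refed control and at least 4.55-fold lower than in the fasted Drp1LiKO liver. Park2, the ubiquitin ligase parkin that PINK1 activates, read 0.91, 0.95, 1.43 and 1.61 in the same order.

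Among 18 genes of the ULK1 complex and its mTORC1 or AMPK regulators, 1 was called higher in a genotype comparison, Ddit4, which encodes the mTORC1 inhibitor REDD1. It read 0.80 in the fasted control, 4.19 in the fasted Drp1LiKO, 1.07 in the refed control and 1.58 in the refed Drp1LiKO liver. It was high in the fasted Drp1LiKO liver alone, with a genotype difference of 3.39 fasted and 0.50 refed, and a refeeding difference of -2.61 in Drp1LiKO livers. Rb1cc1, which encodes the ULK1 partner FIP200, was lower after feeding in Drp1LiKO livers by -1.03 and in controls by -0.54.

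Among the PI3K complex and ATG9 genes, Atg14 was lower in the refed Drp1LiKO liver than in the refed control by -1.24, and by -0.76 in the fasted pair. Atg9a, which encodes the membrane protein of autophagosome seeds, was lower after feeding in both genotypes, by -1.34 in controls and by -1.24 in Drp1LiKO livers. Among ATG8 proteins and their conjugation enzymes, Map1lc3a was lower in the refed Drp1LiKO liver by -1.01, and Atg16l2 was higher in the fasted Drp1LiKO liver by 1.14. Of the transcription regulators of the pathway, the coactivator gene Ppargc1a was lower after feeding by -1.02 in controls and by -0.85 in Drp1LiKO livers. Foxo4, well above background in the fasted Drp1LiKO liver only, was at least 1.72-fold lower after feeding there. Foxo6 was called higher in the refed Drp1LiKO liver but was too dim to give a fold. Of 13 genes for fusion with the lysosome, 0 were called in any of the 4 comparisons.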

How the data were processed

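Total liver RNA of 4 mice was labelled with Cy3 and hybridized to 4 one-colour Agilent arrays. Intensity values are the processed signals of the scanner files as deposited, which the software had corrected for background but not scaled between arrays (Agilent Feature Extraction 10.7.1.1 per the file headers, 9.5.1.1 per the labels). The authors' table of normalized intensities, taken to the log2 scale, was an alternative. The study's methods name another array and RNA kit than the labels. Signals were scaled to the 75th percentile of each array on the log2 scale, outlier spots were left out, which removed 37 probes, and repeated spots were averaged. Probe names were updated through RefSeq for 26761 probes, and 12668 kept the file's name. For genes with several probes the one above background on the most arrays, then the brightest, was used. Probe positions are those of the files (mm9). The members, gene lists and tests were chosen with earlier results of these data known. All 10 members are named, and list genes where a difference was called. limma 3.58.1 in R 4.3.3 fitted the additive model to genes above background on at least 2 arrays. The model and the calls were tested on simulated data whose changes were large and equal in both feeding states. Genes that differ in 1 liver, such as Ulk1, were not simulated. Alternatives were median scaling, quantile normalization, the authors' values, normexp (offset 50) for the background, the median over probes, a stricter filter, a 1.5-fold threshold, outlier spots kept, other limma settings and, chosen after seeing the data, scaling by the median of genes above background on all arrays. The number of arrays limits the precision.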

Additional observations from a re-analysis of the deposited data

How the results depend on the processing

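Ulk1 was called lower in refed livers (-1.26 to -1.08) and after feeding in Drp1LiKO livers (-1.46 to -1.14) in all 10 settings of the values, and Sqstm1 higher (0.93 to 1.67 fasted, 0.96 to 1.56 refed) in 9 of 10. With the median over probes 0 genes were called higher in either feeding state, since the dim second Sqstm1 probe brings it under 2-fold. The median of the 10 genes in fasted livers turned to 0.076 with quantile normalization and 0.072 with the authors' values. In Drp1LiKO livers after feeding it became -0.50 and -0.51, and 2 genes were called lower in each, Ulk1 and Gabarapl1. A 1.5-fold threshold called 2 genes higher and 3 lower in refed livers, and 3 lower after feeding in Drp1LiKO livers, where 14.8%, 15.3% and 14.9% of all genes were so called. Genes past an adjusted p of 0.05 for genotype in limma numbered 1214 with the filter on all 4 arrays, 474 with an intensity trend, 319 with median scaling, 479 with normexp, 13 with scaling by the median of genes above background on all arrays (chosen after seeing the data) and 1 with the tested term alone. Of the 10 genes 1, Sqstm1, was among them with that filter, the trend, median scaling and normexp. For feeding the filter on all 4 arrays gave 15 genes. The cause of these shifts was not tested. The median over genes above background on all arrays was -0.12 fasted and 0.12 after feeding in Drp1LiKO livers under the main scaling, against -0.02 and 0.05 with quantile normalization. Normexp moved the share of higher calls over all genes from 60.8% to 38.7% fasted, 56.0% to 33.6% refed, 43.4% to 61.2% after feeding in controls and 44.0% to 56.9% in Drp1LiKO livers. The stricter filter moved it to 45.4% fasted and 43.9% refed, and the 1.5-fold threshold moved it in Drp1LiKO livers after feeding to 54.0%. No paired analysis was possible because each group has 1 array, and for the same reason no replicate could be left out.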

Other observations

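Some markers of other cells in the same livers differed by feeding state and genotype. The neutrophil calprotectin genes S100a8 and S100a9 were lower in the fasted Drp1LiKO liver than in the fasted control, by -1.04 and -1.11, and higher in the refed Drp1LiKO liver than in the refed control, by 0.94 and 1.04. S100a9 read 1.44 in the fasted control, 0.33 in the fasted Drp1LiKO, 1.49 in the refed control and 2.53 in the refed Drp1LiKO liver. Other neutrophil markers were not called by genotype: Ly6g gave 0.08 fasted and 0.02 refed, and Csf3r -0.47 and -0.03. The exception was Mpo, above background in the refed Drp1LiKO liver only and at least 1.05-fold higher there than in the refed control. The collagen genes Col1a1 and Col3a1, made by hepatic stellate cells, were higher in the fasted Drp1LiKO liver by 1.67 and 1.28, with -0.02 and -0.44 in the refed pair. They were the 2 called there of 7 stellate cell markers, whose median difference was 0.81. Of the 7, 2 were lower fasted, Reln by -0.74 and Des by -0.08. In the refed pair 0 were called and 4 were lower, with a median of -0.02 and values from -0.63 (Pdgfrb) to 0.60 (Lrat). Of the adipocyte markers listed only Cfd, which encodes the complement factor adipsin, was above background. It read 2.08 in the fasted control, -2.99 in the fasted Drp1LiKO, 4.45 in the refed control and -1.83 in the refed Drp1LiKO liver. With 1 array in each group none of these differences was tested.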
